A study of Mus musculus with 42 samples.

Results

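Microglia of APP/PS1 mice were compared with microglia of wild-type (WT) mice at 4 months of age, the youngest age of the series. All libraries of that age were used, 18 of the 42 in the table: 4 Ki67+ and 4 Ki67- libraries of APP/PS1 mice, and 5 Ki67+ and 5 Ki67- libraries of WT mice. All came from male C57BL/6 mice. APP/PS1 mice carry the transgenes of that line, which include a mutant amyloid precursor protein and are driven by the mouse prion promoter, and WT mice carry none of them. Microglia were taken from the brain, fixed, gated on CD11b and CD45 and sorted by staining for the nuclear proliferation antigen Ki67, up to 400 cells in a library. The WT groups went through the same protocol of fixation and sorting as the APP/PS1 groups, and genotypes were compared within the sorted Ki67 state. The labels do not name sort days or batches, so the genotypes may differ in these as well. Of the 19151 genes in the table, 13654 reached a mean of 7 in at least 1 of the 4 groups and were tested. Values are on the log2 scale of the deposited table, on which a difference of 1 is about a doubling, although the transformation is not named and may understate the change of weakly expressed genes.

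Microglia are the resident macrophages of the brain. Around amyloid plaques they leave the homeostatic state, which is marked by genes such as P2ry12 and Tmem119, and take up a state often called disease-associated, marked by genes of phagocytosis, lysosomes and lipid handling such as Cst7, Lpl, Itgax, Clec7a, Trem2, Tyrobp and Apoe. TREM2, with its adaptor TYROBP, is the receptor known to be needed for the full form of this state.

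The sorted cells carried the markers of microglia in every library. Cx3cr1, P2ry12 and Tmem119 lay between 13.53 and 14.61 in all 18 libraries. Markers of other cells were measured as well and differed between the gates: the mean of 12 astrocyte markers was 11.003 to 11.70 in the 9 Ki67+ libraries and 7.75 to 9.07 in the 9 Ki67- libraries. Of 35 cell cycle genes, 9 were higher in every Ki67+ than in every Ki67- library, among them Birc5 (8.09 to 9.71 against 5.93 to 6.81), which acts in mitosis, and the cyclin Ccnb1 (7.88 to 9.63 against 6.58 to 7.04). WT Ki67+ library 3 lay above the Ki67- libraries in these 9 by the way they were chosen (Birc5 8.09, Ccnb1 8.01). Among the rest of the 35 it went both ways. It lay below every Ki67- library in Top2a (6.91 against 7.08 to 8.28) and Cdk1 (6.97 against 7.09 to 8.22), among others. In Mcm3 (9.27 against 6.75 to 8.50) and Mcm6 (9.36 against 6.76 to 8.36), among others, it lay above every one. Mki67 mRNA, which encodes the antigen used for the sort, was not among the 9 and overlapped between the gates in WT mice. It was 8.37, 8.29, 6.73, 8.17 and 8.58 in WT Ki67+ libraries and 7.95, 7.97, 8.37, 7.63 and 8.31 in WT Ki67- libraries, so the third library labelled WT Ki67+ lay below every WT Ki67- library. In APP/PS1 mice it was 8.67, 8.36, 9.37 and 8.95 in Ki67+ and 7.09, 7.36, 7.68 and 8.19 in Ki67- libraries, with no overlap. WT Ki67- libraries 1 and 2 were almost the same in the table (root mean square difference 0.0358 over the genes tested, against 0.291 to 0.545 for the other pairs of that group), and the correction that the authors applied had removed 96.3% of the spread these libraries could show around their group mean. Where a list's count of genes at an unadjusted p under 0.05 moved when this pair was counted as 1, or when WT Ki67+ library 3 was left out, that count is given in the closing section or beside the list. Ki67 state held 48.8% of the variance over the genes tested, genotype 5.19%, their interaction 4.36% and replicates of a group 41.6%. These shares are of the corrected values, from which spread between replicates had been removed, so the share of replicates is too small.

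The table has mouse gene symbols and no separate rows for the transgenes, so they were not measured directly. App, which encodes the amyloid precursor protein, had a mean of both genotype differences of -0.02 (SE 0.17, limma adjusted p = 0.989). Prnp, whose promoter drives the transgenes, differed by 0.39 (SE 0.18, limma adjusted p = 0.681). Neither value passed the test, and they give no check of the genotype labels.

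Over both Ki67 states, 1 gene was higher in APP/PS1 than in WT microglia and 0 were lower, 0.00732% of the genes tested (limma, Ki67 state as a block, Benjamini-Hochberg adjusted p under 0.05). The gene was Cst7, which encodes cystatin F, an inhibitor of cysteine proteases of the lysosome. At an unadjusted p under 0.05 there were 481 genes higher and 508 lower, 7.24% in all. A fit to all 42 libraries called 3 genes higher, Cst7, Lpl and Ccl6, and 2 lower, Nr4a1 and Hsph1 (0.0366%). In Ki67+ microglia alone 1 gene was called, again Cst7 (0.00732%, and 0 when all 19151 genes were tested), with 8.48% at an unadjusted p under 0.05, and in Ki67- microglia 2 were called, Hbegf higher and Pdp1 lower (0.0146%), with 5.71% at that p. The median SE of a difference was 0.19, and the median gene had a 95% interval of 0.39 to either side. The labels do not say whether libraries of a group came from separate mice, or whether Ki67+ and Ki67- libraries share mice. The p-values therefore measure the spread between these libraries, each taken as independent.

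Cst7 lies at chr2:150570415-150578944 (GRCm38, + strand). The 250 bases before its start, from RefSeq (GRCm38.p6, chr2:150570165-150570414, + strand), are shown because it is the gene that passed the test. Capitals mark the match to GGAAGT or its reverse complement ACTTCC, the core bound by ETS factors such as PU.1, the main lineage factor of microglia.
Cst7: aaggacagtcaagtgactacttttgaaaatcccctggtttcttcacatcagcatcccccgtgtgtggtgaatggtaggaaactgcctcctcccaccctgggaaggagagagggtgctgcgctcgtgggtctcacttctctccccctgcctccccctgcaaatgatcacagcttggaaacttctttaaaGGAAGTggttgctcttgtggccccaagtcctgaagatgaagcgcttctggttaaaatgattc
The match begins 62 bases before the start. On either strand, 20.0% of 27025 such windows hold it, and 7 of the 30 windows found for disease-associated microglia genes do (23.3%). The match describes the sequence, and binding was not measured here.

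Cst7 was 7.07, 7.12, 6.26, 7.44 and 6.83 in the 5 WT Ki67- libraries and 9.38, 9.94, 8.41 and 8.68 in the 4 APP/PS1 Ki67- libraries. In Ki67+ cells it was 7.86, 9.13, 7.85, 8.40 and 8.16 in WT and 12.98, 11.12, 10.97 and 10.69 in APP/PS1 libraries. Every APP/PS1 library lay above every WT library of its Ki67 state, and APP/PS1 Ki67+ library 1 was the highest of all. The difference was 2.66 over both states (SE 0.32, 95% interval 2.00 to 3.32, limma adjusted p = 0.000722). The exact permutation test, two-sided with genotype exchanged within each Ki67 state, gave p = 6.3e-05, the smallest that its 15876 assignments allow. That test favours the labelled groups, since spread between replicates had been removed from the table with the groups known. It also exchanged genotype in the 2 states separately, as if their libraries came from different mice. The labels do not say so, and with shared mice fewer assignments would exist and the smallest p would be larger. The difference was 3.16 in Ki67+ (SE 0.43, limma adjusted p = 0.00817, a call that was lost when the filter on low values was dropped) and 2.16 in Ki67- microglia (SE 0.43, limma adjusted p = 0.263). The 2 states differed by 1.00 (SE 0.61, 95% interval -0.28 to 2.28, limma adjusted p = 0.837), so a difference between them was neither shown nor bounded closely.

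**Figure D1:**
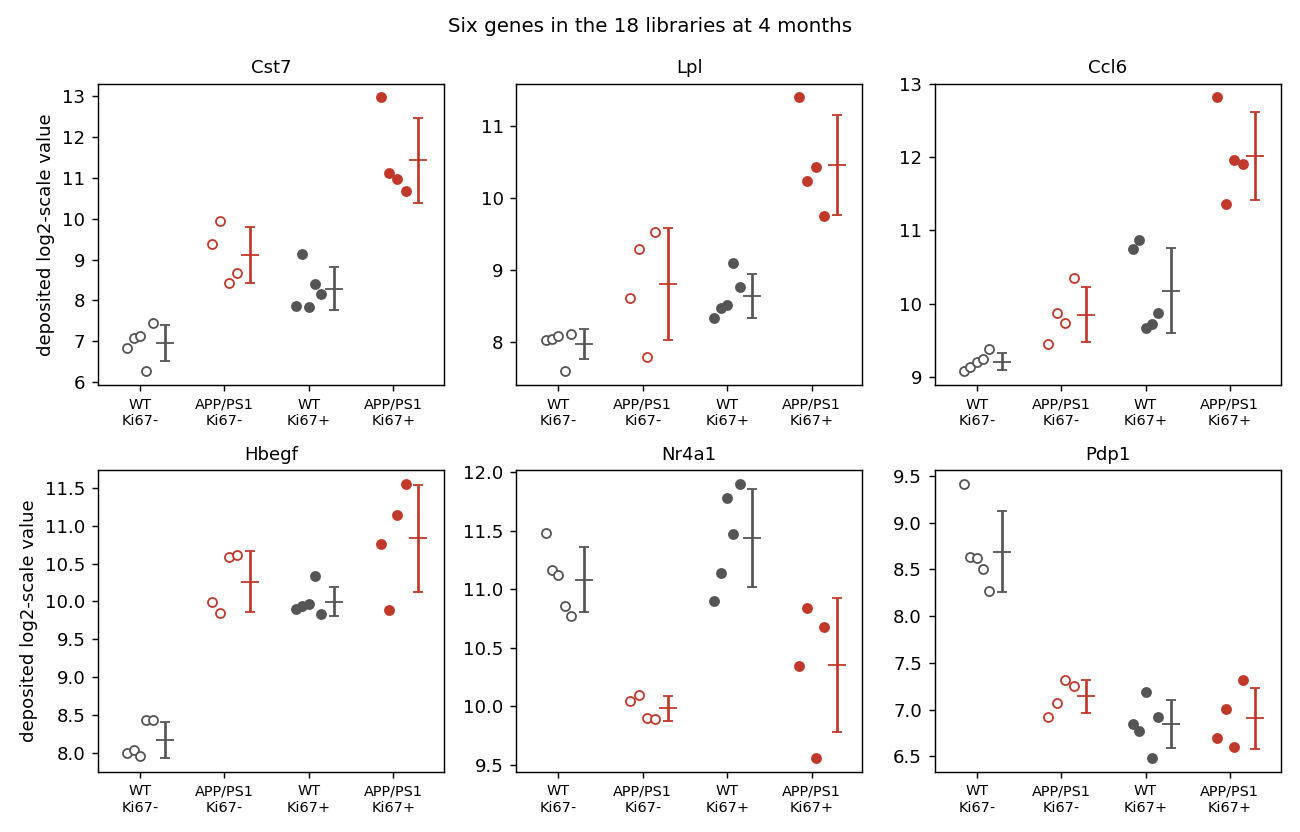
Deposited log2-scale values of Cst7, Lpl, Ccl6, Hbegf, Nr4a1 and Pdp1 in the 18 libraries at 4 months, by genotype and Ki67 state. Points are libraries, filled for Ki67+ and open for Ki67-, grey for WT and red for APP/PS1, and the bars beside them give the mean and SD. All APP/PS1 points of Cst7 lie above all WT points of the same state, and Pdp1 is separated in Ki67- libraries but overlaps in Ki67+ libraries.

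The genes that followed Cst7 by p did not pass the test over both states. Lpl encodes lipoprotein lipase, which frees fatty acids from lipoproteins. It was 8.34, 8.47, 8.51, 9.11 and 8.77 in WT Ki67+ and 11.40, 10.23, 10.43 and 9.75 in APP/PS1 Ki67+ libraries, with no overlap. In Ki67- libraries it was 8.05, 8.09, 7.60, 8.11 and 8.04 in WT and 8.61, 9.29, 7.80 and 9.53 in APP/PS1 mice, where 3 of 4 lay above every WT library and APP/PS1 library 3 lay within their range. Its difference was 1.32 (SE 0.26, limma adjusted p = 0.13, and an adjusted p of 0.0176 in the fit to all 42 libraries).

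Ccl6, a chemokine of the CC family expressed by myeloid cells (chr11:83587882-83593087, GRCm38, - strand), was 10.75, 10.87, 9.67, 9.72 and 9.87 in WT Ki67+ and 12.82, 11.37, 11.97 and 11.91 in APP/PS1 Ki67+ libraries. In Ki67- libraries it was 9.13, 9.21, 9.25, 9.38 and 9.08 in WT and 9.45, 9.87, 9.74 and 10.35 in APP/PS1 mice. The genotypes did not overlap in either state. The difference was 1.24 (SE 0.25, limma adjusted p = 0.141, and 0.0412 in the fit to all 42 libraries).

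Hbegf, which encodes a growth factor that binds the EGF receptor, was the highest-ranked gene of Ki67- cells. It was 8.04, 7.95, 8.44, 8.43 and 7.996 in WT Ki67- libraries and 10.00, 9.84, 10.59 and 10.62 in APP/PS1 Ki67- libraries. Those groups were apart by more than 1, whereas in Ki67+ cells APP/PS1 library 2 (9.89) fell within the WT range of 9.84 to 10.34 and the other 3 (10.75, 11.15 and 11.55) lay above it. The difference was 2.09 in Ki67- (SE 0.29, limma adjusted p = 0.0128), 0.84 in Ki67+ (SE 0.29, limma adjusted p = 0.465) and 1.46 over both (SE 0.25, limma adjusted p = 0.0551). The call in Ki67- cells was lost in the fit to all 42 libraries, where no gene was called in Ki67- cells. Leaving out APP/PS1 Ki67+ library 2 gave a difference of 1.66 over both states, with a limma adjusted p of 0.00143, the lowest of a range up to 0.307 over the 25 alternatives.

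The other genes among the 10 of lowest p that were higher were Bcl2a1d (0.94), Baiap2l2 (0.65), Gm8210 (1.12), Lrrc40 (0.87), Psmb6 (0.61) and Tln2 (0.71), and none passed the test (limma adjusted p from 0.13 to 0.334). Bcl2a1d encodes a member of the BCL2 family that opposes apoptosis, and shares reads with near-identical copies, so its value is uncertain. Psmb6 encodes a catalytic subunit of the proteasome. Bcl2a1d, Baiap2l2 and Psmb6 belong to the 13 genes, 0.0952% of those tested, in which every APP/PS1 library lay above every WT library in both Ki67 states. Aldoc, Cd63, Ccl6, Cst7, Fam213b, Fpgt, Recql4, Timm8b, Tipin and Upk1b are the rest. Bcl2a1d was barely apart in Ki67+ cells, at 8.7366 in APP/PS1 library 3 and 8.7352 in WT library 1. Baiap2l2 lay near the filter and entered the test only through its high group. Its mean was 7.14 in APP/PS1 Ki67+ and 6.996 in APP/PS1 Ki67- libraries, and 6.44 and 6.38 in WT Ki67+ and Ki67- libraries.

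Disease-associated microglia genes were mostly on the higher side. Of the 37 tested, 1 was called higher (Cst7) and 0 lower, 32 had a difference above 0, and 14 were higher at an unadjusted p under 0.05 with 0 lower. Over all genes 50.2% had a difference above 0 and 3.52% were higher at that p. The list's median difference was 0.30, against 0.00 for all genes, and was 0.47 in Ki67+ and 0.10 in Ki67- microglia. The genes that led it after Cst7, Lpl and Ccl6 were Itgax, Spp1, Cd63, Cd52, Cadm1, Gusb, Hif1a, Igf1, Ank, Cd68 and Clec7a. The mean of the 37 genes was 11.20 to 11.82 in APP/PS1 Ki67+ libraries, above the WT range of 10.65 to 11.04, and 10.43 to 10.73 in APP/PS1 Ki67- libraries, overlapping the WT range of 10.14 to 10.54.

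Single members differed in how far the libraries overlapped. Itgax, the integrin CD11c, was 7.12, 7.17, 7.15, 7.71 and 7.83 in WT Ki67+ and 9.75, 8.32, 7.70 and 8.18 in APP/PS1 Ki67+ libraries, with 3 of 4 above every WT library. In Ki67- libraries it was 6.84 to 7.42 in WT and 8.02, 8.11, 7.23 and 8.15 in APP/PS1 mice, again with 3 of 4 above. The difference was 0.95 (SE 0.24, limma adjusted p = 0.339). Spp1, which encodes the secreted protein osteopontin, was the most spread of the leading genes: it reached 11.80, 8.70, 10.32 and 12.71 in APP/PS1 Ki67+ against 8.27 to 9.68 in WT libraries, and 7.28, 9.13, 6.69 and 9.57 in APP/PS1 Ki67- against 5.33 to 7.37. Its difference was 1.89 with an SE of 0.47 (limma adjusted p = 0.339). Clec7a, the beta-glucan receptor dectin-1, was 11.01, 8.86, 9.91 and 10.35 in APP/PS1 Ki67+ and 7.43 to 9.53 in WT libraries, and in Ki67- libraries the genotypes overlapped (7.13 to 8.98 against 7.71 to 8.78). Its difference was 0.78 (SE 0.36, limma adjusted p = 0.681).

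Trem2, Tyrobp and Apoe did not pass the test. Trem2 was 12.78 to 13.21 in APP/PS1 Ki67+ and 12.48 to 12.85 in WT libraries, and 12.87 to 13.42 against 13.03 to 13.13 in Ki67- libraries, a difference of 0.21 (SE 0.14, limma adjusted p = 0.78). Tyrobp was 14.17, 13.48, 13.50 and 13.81 in APP/PS1 Ki67+ libraries, above the 12.72 to 13.44 of WT, and overlapped in Ki67- libraries, a difference of 0.32 (SE 0.17, limma adjusted p = 0.7). Apoe, the main lipid carrier protein of the brain, differed by 0.04 (SE 0.21, 95% interval -0.40 to 0.48, limma adjusted p = 0.981), and the genotypes overlapped in both states.

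**Figure D2:**
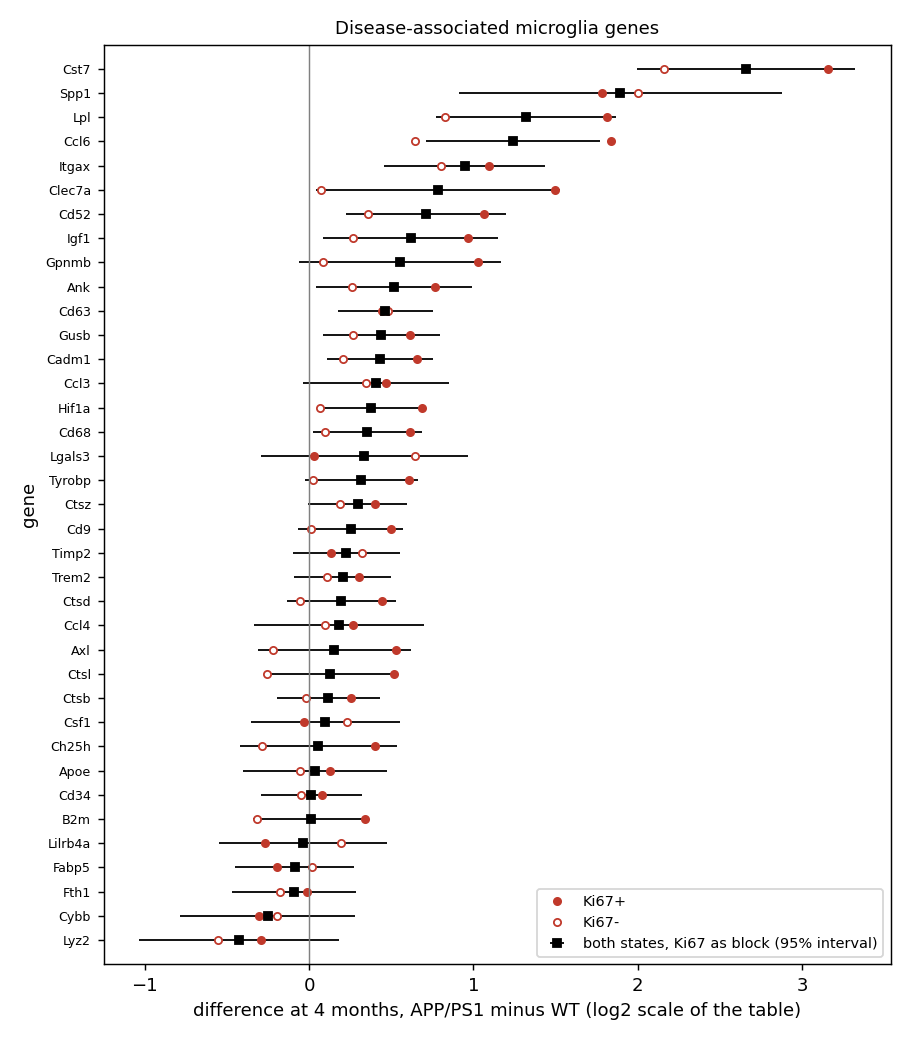
Differences between APP/PS1 and WT microglia at 4 months for the 37 disease-associated microglia genes tested, on the log2 scale of the table, sorted by the difference over both states. Black squares give the difference with Ki67 state as a block and its 95% interval, and filled and open red circles give Ki67+ and Ki67- microglia. Of the 37 squares 32 lie above 0, and Cst7 at 2.66 is the gene that passed the test over all genes.

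Homeostatic microglia genes lay mostly below 0, by small amounts. Of 30 tested, 0 were called (limma), and 7 had a difference above 0 and 23 below, where 50.2% of all genes were above. At an unadjusted p under 0.05, 2 were higher and 0 lower, against 3.52% and 3.72% of all genes. Those 2 were Fcrls (0.67, limma adjusted p = 0.389) and Upk1b (0.53, limma adjusted p = 0.469). The list's median was -0.08. Cx3cr1, the fractalkine receptor, differed by -0.09 (SE 0.13), P2ry12, a purinergic receptor, by -0.16 (SE 0.14) and Tmem119 by -0.22 (SE 0.15), with limma adjusted p-values from 0.787 to 0.911. In Ki67- cells each of the 4 APP/PS1 libraries had less P2ry12 (13.76, 14.10, 13.91 and 14.15) than every WT library (14.16 to 14.29). The margin was narrow, with 14.1458 in the highest APP/PS1 and 14.164 in the lowest WT library. In Ki67+ cells the genotypes overlapped.

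Among other functions, lysosome genes had a median of 0.11 with 30 of 39 above 0 and 3 higher at an unadjusted p under 0.05, Cd63, Gusb and Cd68, which are also disease-associated genes here. Over all genes 50.2% had a difference above 0, 3.52% were higher at that p and 3.72% lower. Interferon-stimulated genes had a median of -0.03 (13 of 28 above 0). Irf7, a transcription factor of the interferon response, was the 1 of 28 lower at that p (-0.60, SE 0.17, limma adjusted p = 0.497). That count is near the share of all genes. Genes of MHC and antigen presentation had a median of -0.02 with 0 of 22 past that p in either direction (limma). Medians were -0.03 for cytokines and chemokines, -0.10 for inflammasome genes, -0.03 for complement genes, 0.05 for lipid metabolism, 0.05 for phagocytic receptors and 0.01 for glycolysis. These 9 lists held 0 genes called by limma over both states. Beyond genes shared with the disease-associated list, those at an unadjusted p under 0.05 were Ccl9 (0.42), Apoc2 (0.60) and Aldoc (0.76) on the higher side and Il1a (-0.42), Txnip (-0.50), Serping1 (-0.40) and Irf7 on the lower side. Apoc2 and Serping1 lay near the filter and entered the test only through the group where each was high. Apoc2 was 7.29 to 7.73 in APP/PS1 Ki67+ and 6.27 to 6.87 in WT Ki67+ libraries. Serping1 was 6.29 to 6.34 and 6.42 to 7.70 in the same groups.

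Cell cycle genes had a median of 0.06 over both states, 0.24 in Ki67+ and -0.17 in Ki67- microglia, and 0 of 35 were called (limma). Cenpf, Ube2c and Cdc20, which act in mitosis, were the 3 that were higher at an unadjusted p under 0.05, against 3.52% of all genes. Without WT Ki67+ library 3, the library of low Mki67, 1 was higher and 1 lower at that p, and the median was 0.02.

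On the lower side no gene passed the test over both states, and the 10 of lowest p were Nr4a1, Hsph1, Me2, Adcy9, Ccr6, Dnaja1, Klhdc1, Hspa8, Slc6a20a and Aifm2 (limma adjusted p from 0.0723 to 0.339). Nr4a1 encodes an orphan nuclear receptor that is induced early after many stimuli (chr15:101254269-101274795, GRCm38, + strand). It was 10.90, 11.14, 11.78, 11.47 and 11.90 in WT Ki67+ and 10.34, 10.84, 9.56 and 10.68 in APP/PS1 Ki67+ libraries. In Ki67- libraries it was 11.17, 11.12, 10.86, 10.77 and 11.48 in WT and 10.05, 10.09, 9.90 and 9.89 in APP/PS1 mice. The genotypes did not overlap in either state, and the difference was -1.09 (SE 0.19, limma adjusted p = 0.0723, and 0.00924 in the fit to all 42 libraries). The wider list of immediate early genes had a median of -0.13. At an unadjusted p under 0.05, 4 of 24 were lower and 1 higher, against 3.72% and 3.52% of all genes. These were Nr4a1, Hspa1a (-1.37), Hspa1b (-1.17) and Fosl2 (-0.70) on the lower side and Dusp1 (0.50) on the higher. Hspa1a and Hspa1b are near-identical copies and are counted again among the heat shock genes below.

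Ccr6, a chemokine receptor best known on lymphocytes, had the largest difference on the lower side, -2.56, and a wide spread (SE 0.55, limma adjusted p = 0.206). It was 6.04, 10.36, 6.26 and 6.75 in APP/PS1 Ki67+ libraries against 9.44, 10.76, 7.32, 10.18 and 10.08 in WT, and 6.70, 8.11, 6.37 and 4.92 against 9.87, 9.67, 9.26, 9.79 and 8.58 in Ki67- libraries. APP/PS1 Ki67+ library 2 was the only APP/PS1 library within the WT range. Me2, the mitochondrial malic enzyme, differed by -0.96 (SE 0.18) and Adcy9, an adenylate cyclase, by -1.002 (SE 0.21), and in both genes every APP/PS1 library lay below every WT library of its state. There were 13 such genes, 0.0952% of those tested, and the others were Atp5b, Disp2, Dock8, Hspa8, Laptm4a, Mettl17, Mid1ip1, Nr4a1, Snap25, Tbata and Tcte1. Snap25 was barely apart in Ki67- cells, at 7.106 in the highest APP/PS1 and 7.1065 in the lowest WT library.

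Pdp1, which encodes the phosphatase that activates pyruvate dehydrogenase (chr4:11958184-11966452, GRCm38, - strand), was the 1 gene called lower in Ki67- microglia. There it was 8.63, 8.63, 8.51, 8.27 and 9.41 in WT and 6.92, 7.07, 7.32 and 7.25 in APP/PS1 libraries, apart by about 1. In Ki67+ microglia both genotypes lay low, 6.48 to 7.19 in WT and 6.60 to 7.32 in APP/PS1. The difference was -1.55 in Ki67- (SE 0.25, limma adjusted p = 0.0487) and 0.06 in Ki67+ (SE 0.25, limma adjusted p = 0.971). Its interaction was 1.61 (SE 0.36) with a limma adjusted p of 0.778. The call was lost when WT Ki67- libraries 1 and 2 were counted as 1, in the fit to all 42 libraries, and in 15 of the 18 fits without 1 library. Across all genes the interaction of genotype and Ki67 state was called for 0 genes by limma, with 825 at an unadjusted p under 0.05 (6.04%), and for 0 in the fit to all 42 libraries.

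Several of the genes on the lower side encode heat shock proteins, which fold proteins and are induced by stress. A list of 24 heat shock and chaperone genes was therefore drawn up after these values were seen, and it gets no test. Of the 24, 0 were called (limma) and 23 had a difference below 0, where 50.2% of all genes were above. At an unadjusted p under 0.05, 13 were lower, against 3.72% of all genes. Its median was -0.42, with -0.68 in Ki67+ and -0.35 in Ki67- microglia. Hsf1, the transcription factor that induces these genes, was the 1 above 0 (0.25, SE 0.18).

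The promoter of Hspa1a, which encodes an inducible HSP70, is shown because Hspa1a is a leading gene of this list (RefSeq, GRCm38.p6, chr17:34972157-34972406, - strand). Capitals mark the match to GAANNTTC or TTCNNGAA, each its own reverse complement and the paired core of such elements.
Hspa1a: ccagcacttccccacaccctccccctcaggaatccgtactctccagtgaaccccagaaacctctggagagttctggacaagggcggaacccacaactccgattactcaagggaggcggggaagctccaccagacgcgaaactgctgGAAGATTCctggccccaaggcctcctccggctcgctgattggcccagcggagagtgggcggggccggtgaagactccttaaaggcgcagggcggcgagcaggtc
The match begins 104 bases before the start. Of the 20 windows found for the 24 genes 7 hold such a match (35.0%), those of Dnaja1, Fkbp4, Hspa1a, Hspa1b, Hspb1, Hspe1 and Hsph1, against 12.9% of all 27025 windows. Neither match is particular to its list: the window of Cst7 also holds a match to the heat shock letters, as do 4 of the 30 windows of disease-associated genes (13.3%), and the ETS letters are in the window of Hspa1a and in 8 of the 20 of heat shock genes (40.0%).

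Hsph1 encodes HSP110, which recharges HSP70 (chr5:149614287-149636376, GRCm38, - strand). It was 10.60, 10.05, 12.14, 11.06 and 11.99 in WT Ki67+ and 9.12, 10.10, 9.60 and 9.53 in APP/PS1 Ki67+ libraries, with APP/PS1 library 2 just above the lowest WT library. In Ki67- libraries it was 10.55, 10.50, 9.86, 10.25 and 10.88 in WT and 9.51, 9.41, 9.01 and 8.86 in APP/PS1 mice, with no overlap. The difference was -1.39 (SE 0.26, limma adjusted p = 0.0972, and 0.0297 in the fit to all 42 libraries). Hspa8, the constitutive HSC70, differed by -0.81 (SE 0.19, limma adjusted p = 0.304) with no overlap in either state, and its cochaperone Dnaja1 by -0.79 (SE 0.18, limma adjusted p = 0.276).

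Hspa1a spread most. It was 15.50, 14.90, 17.25, 14.66 and 16.55 in WT Ki67+ and 13.24, 15.85, 13.06 and 14.02 in APP/PS1 Ki67+ libraries, and 13.92, 13.83, 13.39, 13.33 and 14.31 against 12.97, 12.94, 13.38 and 11.72 in Ki67- libraries. The genotypes overlapped in both states, WT Ki67+ libraries 3 and 5 were the highest, and the difference was -1.37 (SE 0.39, limma adjusted p = 0.497). Hspa1a and Hspa1b are near-identical copies, and their reads cannot be told apart with certainty.

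Libraries stood apart in this list as a whole. The mean of the 24 genes was 10.64 to 11.58 in WT Ki67+ and 10.13 to 10.79 in APP/PS1 Ki67+ libraries, and 10.36 to 10.81 against 9.86 to 10.33 in Ki67- libraries. Without WT Ki67+ libraries 3 and 5 the median difference was -0.38, with 10 of the 24 lower at an unadjusted p under 0.05. The mean of 14 neuron markers lay in the same direction in Ki67+ libraries, 7.44 to 8.15 in WT and 6.90 to 8.05 in APP/PS1. Oligodendrocyte markers also went with this list: their mean was 9.66 and 9.69 in WT Ki67+ libraries 3 and 5, where the 24 genes were highest (11.58 and 11.37), and APP/PS1 Ki67+ library 2 was the highest of its group in both (9.07 and 10.79). The part of either in these values was not tested.

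**Figure D3:**
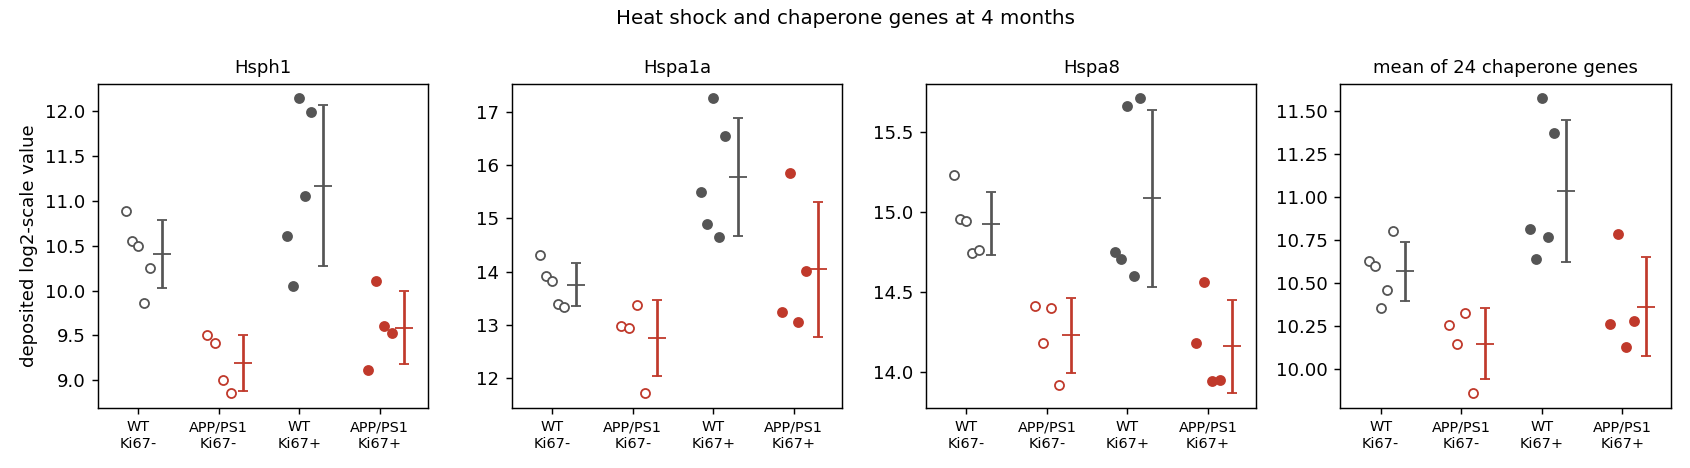
Deposited log2-scale values of Hsph1, Hspa1a and Hspa8 and the mean of 24 heat shock and chaperone genes in the 18 libraries at 4 months. Points are libraries, filled for Ki67+ and open for Ki67-, grey for WT and red for APP/PS1, with the mean and SD beside them. For Hspa8 all red points lie below all grey points of the same state, and WT Ki67+ library 3 is the highest in the mean of the list at 11.58.

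Markers of other cell types were compared in the same way, and 0 of them were called (limma). Of 12 astrocyte markers, 10 had a difference above 0, where 50.2% of all genes did. At an unadjusted p under 0.05, 5 were higher (Aldoc, Sparcl1, Aqp4, Slc1a2 and Gjb6), against 3.52% of all genes. The median of the 12 was 0.36, with 0.72 in Ki67- and 0.18 in Ki67+ microglia. In Ki67- libraries the mean of the 12 was 8.48 to 9.07 in APP/PS1 and 7.75 to 8.22 in WT mice, with no overlap, while in Ki67+ libraries it was 11.19 to 11.70 and 11.003 to 11.51. Aldoc, an aldolase of astrocytes, was 9.58, 9.79, 9.16 and 10.70 in APP/PS1 Ki67- and 8.67 to 9.09 in WT Ki67- libraries (difference over both states 0.76, SE 0.19, limma adjusted p = 0.339).

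All 14 neuron markers tested had a difference below 0, with a median of -0.30 and 3 lower at an unadjusted p under 0.05. Over all genes 50.2% had a difference above 0 and 3.72% were lower at that p. Without WT Ki67+ library 3, 13 neuron markers were below 0 (median -0.20). Without libraries 3 and 5, 12 were (median -0.21, 2 lower at that p). Syt1, Stmn2, Nrgn and Slc17a7 passed the filter only through WT Ki67+ libraries, where each was high, so these counts partly rest on the filter. Syt1 is among the 3 lower at that p. Nefl and Nefm did not pass the filter and were not tested. Snap25, a synaptic vesicle fusion protein, was 7.44, 8.46, 7.12 and 6.21 in APP/PS1 Ki67+ libraries, below the 8.51 to 9.88 of WT, and 6.98 to 7.11 against 7.11 to 7.61 in Ki67- libraries (difference -1.10, SE 0.30, limma adjusted p = 0.439). All 11 oligodendrocyte markers tested were below 0 as well (median -0.27, with -0.66 in Ki67+ microglia). Without WT Ki67+ libraries 3 and 5, however, the median was -0.09 and 9 of 11 were below 0. Pdgfra, the marker of this list below the filter, was 6.30 to 7.00 in APP/PS1 Ki67+ and 5.91 to 6.41 in WT Ki67+ libraries. In Ki67- libraries it was 6.78 to 7.10 against 6.93 to 7.09. Of 14 markers of peripheral myeloid cells and border macrophages, 12 were below 0 (median -0.51) and 2, Ly6c2 and Lyve1, were lower at an unadjusted p under 0.05, which became 4 without WT Ki67+ library 3 and 3 with WT Ki67- libraries 1 and 2 counted as 1. Endothelial and mural markers (median 0.06) and lymphocyte markers (median -0.01) had 0 past that p in limma. The part that RNA of other cells had in the genotype differences of single genes was not tested, and fewer cells of a type cannot be told apart from less RNA per cell.

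**Figure D4:**
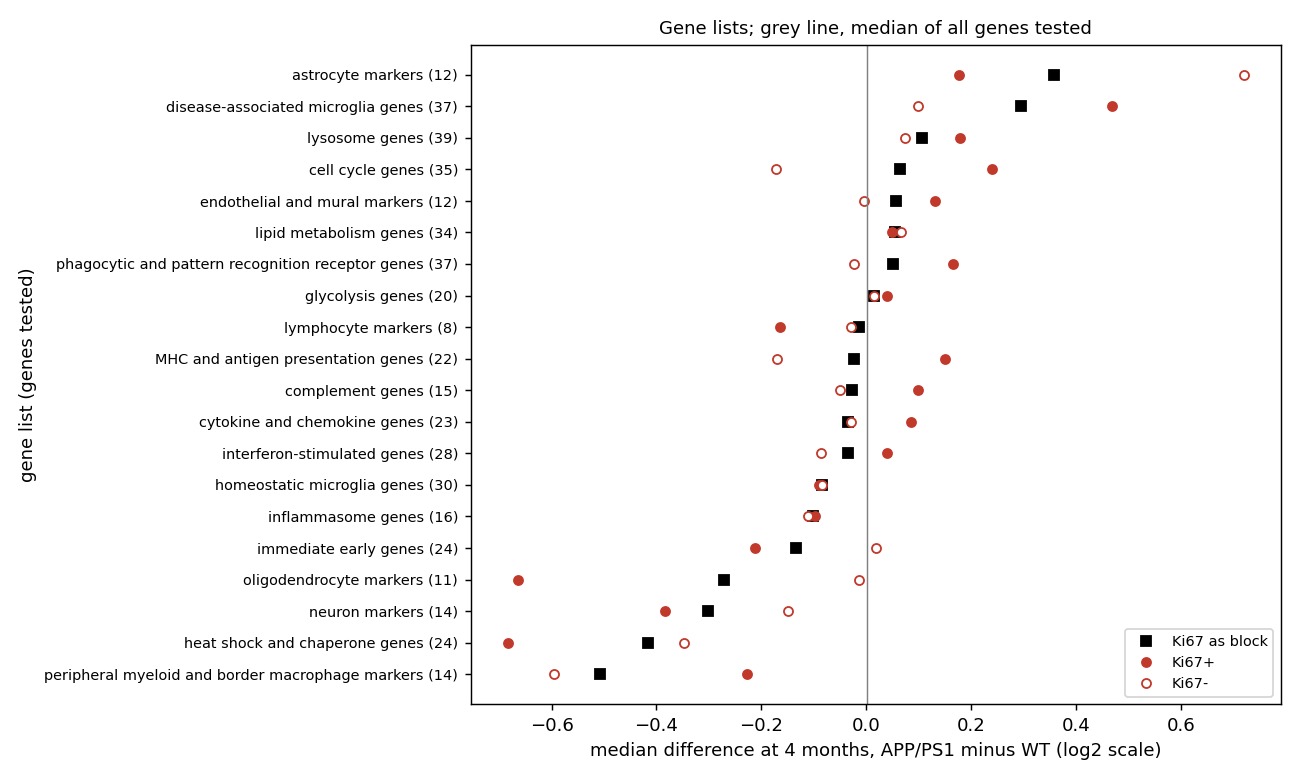
Median difference between APP/PS1 and WT microglia at 4 months for each gene list, on the log2 scale of the table, with the number of genes tested in brackets. Black squares give both states with Ki67 as a block, filled and open red circles Ki67+ and Ki67-, and the grey line the median of all genes tested (0.00). Astrocyte markers (0.36) and disease-associated microglia genes (0.30) lie highest, and the heat shock list (-0.42) and peripheral myeloid markers (-0.51) lowest.

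The same contrast at 6 and 12 months used other libraries, although the values of all ages were corrected together. There limma called 485 genes higher and 157 lower at 6 months (4.31% of 14910 genes) and 1354 higher and 1362 lower at 12 months (18.2%), against 3 and 2 at 4 months in the same fit (0.0335%). Group sizes differ between the ages, with 9 libraries at 6 and 15 at 12 months. Of the 10 higher genes of lowest p at 4 months, 9 had the same sign at 6 months and 9 at 12 months, and 7 and 8 of them were called in that direction. Lrrc40 was called in the opposite direction at 12 months (-0.75, limma adjusted p = 0.0152). Of the 10 lower genes, 6 and 9 had the same sign, and 0 and 3 were called, Hsph1 (-1.60), Dnaja1 (-0.92) and Hspa8 (-0.70) at 12 months. Over all genes tested at 4 months, 52.6% and 52.1% had the same sign at 6 and 12 months, and over the 989 genes with an unadjusted p under 0.05 it was 55.7% and 55.1%.

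The difference between genotypes was tested against age directly. From 4 to 12 months it increased in 495 genes and decreased in 432, 6.22% of 14910, and from 4 to 6 months it increased in 158 and decreased in 27, 1.24% (limma). Cst7 went from 2.66 at 4 months to 4.46 at 12 months (change 1.80, SE 0.52, limma adjusted p = 0.0357), and Lpl from 1.32 to 3.18 (change 1.86, limma adjusted p = 0.0021). Apoe went from 0.04 to 2.06 (limma adjusted p for the change 0.000377), Trem2 from 0.21 to 1.40 (0.000943) and Tyrobp from 0.32 to 1.68 (0.00126). The difference of Ccl6 was 1.24 at 4 months, 1.75 at 6 and 1.41 at 12 months, and its change did not pass the test at either age. In the disease-associated list 36 of the 37 genes were called higher at 12 months and 23 at 6 months.

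The genes of lowest p for a change from 4 to 12 months were Pld3, Dkk2, Myo1e, Dpy19l4 and Mamdc2 on the higher side, of which Pld3, an exonuclease of the lysosome, went from 0.16 to 2.28. On the lower side they were Tsc22d3, Ctnnd2, Sparcl1, Fkbp5 and Ntm. Tsc22d3 and Fkbp5, both known targets of the glucocorticoid receptor, were 0.52 and 0.75 at 4 months and -1.99 and -1.57 at 12 months. Sparcl1 is among the astrocyte markers, 7 of which fell in this test and 0 of which rose. From 4 to 6 months the first 5 were Reck, Ctsd, Lgals3bp, Alox5 and Amz1 on the higher side, and Zfp488, Fpgt, Paqr8, Zkscan5 and Snx14 on the lower side.

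Hbegf and Nr4a1 had smaller differences at the later ages. The difference of Hbegf went from 1.46 at 4 months to -0.12 at 6 and 0.20 at 12 months, and neither change passed the test (limma adjusted p = 0.312 and 0.225). Nr4a1 was -1.09, 0.16 and -0.22, and both changes passed (limma adjusted p = 0.039 at 6 months and 0.0447 at 12 months).

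**Figure D5:**
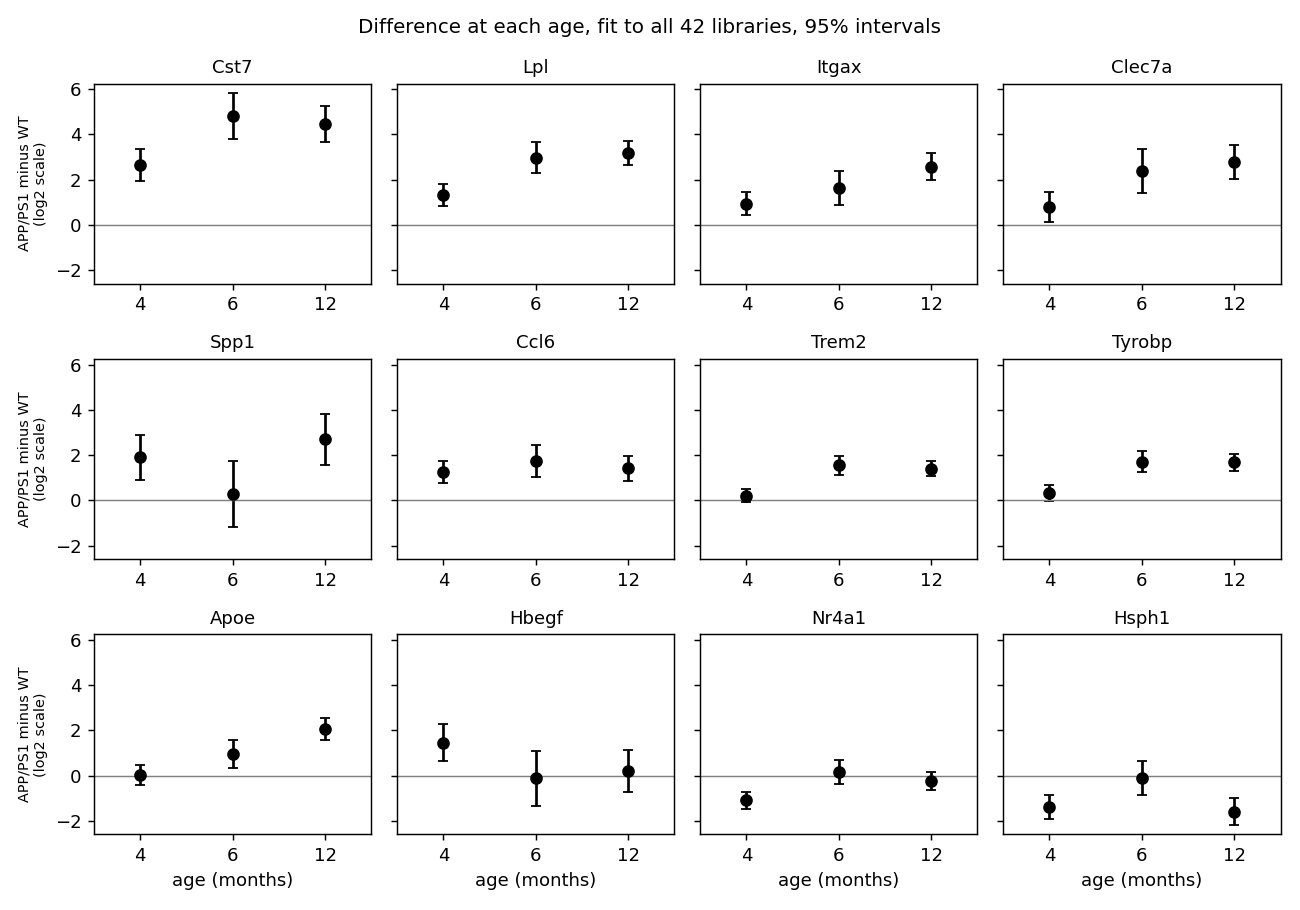
Difference between APP/PS1 and WT microglia over both Ki67 states at 4, 6 and 12 months for 12 genes, from the fit to all 42 libraries, on the log2 scale of the table. Points are the difference and bars its 95% interval. Cst7 rises from 2.66 to 4.46 between 4 and 12 months and Apoe from 0.04 to 2.06, while Hbegf is at 1.46 at 4 months and near 0 later.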

How the data were processed

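RNA of sorted Ki67+ and Ki67- microglia was sequenced from libraries of up to 400 fixed cells. Per the labels and methods, the authors used bcl2fastq 2.20 and kallisto 0.43.1 on GRCm38, normalized with DESeq2 and took out 10 surrogate variables. Deposited values are scores on a log2-like scale whose exact transformation is not given in the sources used here. They are not counts, depth per library is unknown, and differences of weakly expressed genes may be compressed. The removal kept the groups, so spread between replicates is too small in the table and permutation p-values favour the labelled groups.

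Genes were kept where any of the 4 group means reached 7. limma 3.58.1 (R 4.3.3) was fitted to the 18 libraries with Ki67 state as a block, and separately to 4 group means, with Benjamini-Hochberg adjustment over 13654 genes. Residual degrees of freedom were reduced for the removed directions (20 of 30 left). Later ages came from 1 fit to all 42 libraries. Exact permutation tests exchanged genotype within Ki67 state (Python 3.11.15). limma was checked on simulated data. Altered gene names (919) were restored.

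Named genes were those called and, where under 10 were called in a direction, the 10 of lowest p, up to 5 called per state and age change, up to 4 per list, and a set of 14 always included, 1 of which is not reported here; further genes were chosen after their values were seen, among them Hspa1a and other members of the lists at an unadjusted p under 0.05. The members and lists were chosen with earlier results of these data known.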

Additional observations from a re-analysis of the deposited data

Results flagged for a closer look

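Of 124 groups of 4 or 5 libraries (31 genes in 4 groups), 10 had 1 library far from the others, where chance gives about 1 in 20. WT Ki67+ library 4 had the highest Hbegf (10.34) and the lowest P2ry12 (13.71) of its group. WT Ki67- library 3 had the lowest Lpl (7.60), Cx3cr1 (14.38) and Tmem119 (14.25). APP/PS1 Ki67- library 3 had the lowest Itgax (7.23), and WT Ki67+ library 1 the lowest Apoe (14.66). APP/PS1 Ki67+ library 2 had the highest Dnaja1 (11.10) and Ccr6 (10.36). WT Ki67+ library 3 had the lowest Mki67 (6.73).

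In 44 values the genotype difference itself differed between ages (limma, adjusted over 14910 genes, log2 scale of the table). They come from the 31 genes above and from the genes named for a change with age. The latter were named because they passed this same test, so the count of 44 was partly fixed by that choice. Over all 14910 genes the genotype difference changed in 6.22% from 4 to 12 months and in 1.24% from 4 to 6 months. From 4 to 12 months it increased for the disease-associated genes Cst7 (1.80), Lpl (1.86), Itgax (1.63), Clec7a (1.99), Trem2 (1.20), Tyrobp (1.36) and Apoe (2.02), and for Baiap2l2 (1.36), Nr4a1 (0.87), Pld3 (2.12), Dkk2 (1.64), Myo1e (2.23), Dpy19l4 (1.65), Mamdc2 (2.499), Ctsd (1.39), Lgals3bp (1.94) and Cd63 (1.15). It decreased for Tmem119 (-0.81), Tsc22d3 (-2.51), Ctnnd2 (-1.93), Sparcl1 (-2.04), Fkbp5 (-2.32), Ntm (-1.45), Snx14 (-0.81) and Aldoc (-2.08).

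From 4 to 6 months it increased for Lpl (1.65), Nr4a1 (1.25), Trem2 (1.33), Tyrobp (1.40), Cx3cr1 (1.07), Dpy19l4 (1.04), Reck (2.14), Ctsd (1.52), Lgals3bp (2.04), Alox5 (2.30) and Amz1 (1.94). It decreased for Tsc22d3 (-1.39), Sparcl1 (-1.21), Fkbp5 (-1.58), Zfp488 (-1.24), Fpgt (-1.94), Paqr8 (-1.50), Zkscan5 (-1.90) and Snx14 (-1.15).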

How the results depend on the processing

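No paired analysis was possible because the labels carry no replicate numbers and do not say whether Ki67+ and Ki67- libraries came from the same mouse. The 1 gene called over both states became 18 when residual degrees of freedom were not reduced, 5 in the fit to all 42 libraries, 2 with all genes, 4 with a mean of at least 8, 2 with library medians subtracted (a shift of 0.0166 in the median of all genes), 8 with trend and robust moderation, and 1 to 4 without 1 library. The highest, 4, came without APP/PS1 Ki67+ library 2 (Cst7, Hbegf, Ccr6 and Nr4a1), and 3 without WT Ki67+ library 1. Leaving out WT Ki67+ library 2 or 4, or APP/PS1 Ki67- library 3, gave 2. In Ki67+ microglia, 1 (Cst7) became 36, 4, 0 (Cst7 lost with all genes), 3 and 5 under the same changes other than subtracted medians, and 1 to 7 without 1 library, with 7 without APP/PS1 Ki67+ library 2, 3 without WT Ki67+ library 2 and 2 without WT Ki67+ library 1. In Ki67- microglia, 2 became 7, 0 and 0 under the first 3 changes, 5 with trend and robust moderation, 1 with WT Ki67- libraries 1 and 2 counted as 1, and 0 to 3 without 1 library; Hbegf was lost without WT Ki67- library 5 or APP/PS1 Ki67- library 3 or 4, and Pdp1 in 15 of 18. The genotype by Ki67 interaction had 0 calls by limma under every alternative run. The changes of 927 genes from 4 to 12 months and of 185 from 4 to 6 months became 2775 and 1187 when degrees of freedom were not reduced. The cause of these moves was not tested.

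Of 2855 values recomputed for 115 named genes, 2799 kept their direction and side of the threshold, 40 passed it newly, 0 fell below it and 16 changed sign, all of differences near 0. These were differences over both states, where Cst7 alone was called, so no other gene could fall below the threshold. Without 1 library, Mki67 ranged from -0.01341 to 0.3018, App from -0.08693 to 0.06763, Apoe from -0.07108 to 0.1186, Reck from -0.1564 to 0.05073, Lgals3bp from -0.02121 to 0.1398 and Cd3g from -0.05381 to 0.1857. App was 5.212e-05 with the WT Ki67- pair counted as 1. Cst7 was called in 25 of 25 alternatives, at 2.38 to 2.81 with limma adjusted p from 6.96e-05 to 0.0462. Without WT Ki67+ library 3, genes at an unadjusted p under 0.05 went from 14 to 12 higher in the disease-associated list, from 13 to 12 lower in the heat shock list, from 1 to 3 lower among interferon-stimulated genes, from 3 to 2 higher and 1 to 3 lower among cytokines and chemokines, from 3 to 2 higher among lysosome genes, from 2 to 1 higher among phagocytic receptors, and from 1 to 0 lower among inflammasome and among complement genes.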

Other observations

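Of the 13654 genes tested, 21 had a difference of at least 1 in size over both states at 4 months, 6 higher and 15 lower in APP/PS1 microglia, and of these Cst7 alone passed the test (limma). The genes with such differences that the comparison above did not describe were all on the lower side, and they are named here after their values were seen. Ngp (-1.55, SE 0.70), S100a9 (-1.26, SE 0.62), Camp (-1.11, SE 0.55), Lcn2 (-1.26, SE 0.45) and Chil3 (-1.51, SE 0.50) are known for their expression in neutrophils or other myeloid cells of the blood and bone marrow, and Hp (-1.05, SE 0.32) encodes haptoglobin, which binds free haemoglobin. Hmox1 (-1.31, SE 0.36) encodes the haem-degrading oxygenase, and Hsp90aa1 (-1.22, SE 0.33) a stress-inducible form of HSP90. Their limma adjusted p-values lay between 0.454 and 0.693. The mean of the 14 peripheral myeloid and border macrophage markers was 7.01 to 8.48 in APP/PS1 Ki67+ and 7.55 to 9.66 in WT Ki67+ libraries, and 7.75 to 8.15 against 8.13 to 9.10 in Ki67- libraries, so the genotypes overlapped in both states. The part of such cells in these values was not tested.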
